A study of Mus musculus with 6 samples.

Results

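The enzymes described here prepare and perform the crosslinking of collagen and elastin: the 5 lysyl oxidases Lox, Loxl1, Loxl2, Loxl3 and Loxl4, and the 3 procollagen lysyl hydroxylases Plod1, Plod2 and Plod3. They were taken by symbol as the whole of both families, and all 8 were present among the 20076 genes of the deposited table and among the 19667 genes tested. Bulk polyA-enriched RNA had been sequenced from primary tumors of mice 6 weeks after intrabursal (ovarian) injection of ID8 Trp53-/- Brca1-/- cells, an ovarian cancer line of the mouse edited to lack both genes. Tumors of 3 wild-type (WT) C57BL/6 mice were compared with tumors of 3 Tgm2 knockout (Tgm2-/-) mice, 1 library per tumor. Mice in the study were 6 to 10 weeks of age, and both groups received the same cancer cells, which carry Tgm2. The knockout was therefore in the host only and in all of its cells, so Tgm2 transcripts in a knockout tumor can come from cancer cells. The labels call the cell type cancer cells, but the RNA is of whole tumors, and markers of fibroblasts, endothelium, leukocytes and adipocytes were measured in every tumor. In such tissue, fewer cells of a type and less RNA per cell cannot be told apart.

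Fibrillar collagen is modified before it is secreted and crosslinked afterwards. Lysyl hydroxylases act on lysines of the procollagen chain inside the cell: the enzyme of Plod1 acts on the triple helix, that of Plod2 on the telopeptides at the chain ends, and that of Plod3 also adds sugars to hydroxylysine. Outside the cell, the copper-dependent lysyl oxidases turn lysine and hydroxylysine into reactive aldehydes, which then form the covalent bonds that stiffen the fibres. Transglutaminase 2, the product of Tgm2, makes another kind of bond, between glutamine and lysine, so both kinds of enzyme crosslink the matrix of a tumor. The comparison asked whether transcripts of the lysyl oxidases and lysyl hydroxylases differed in tumors whose host lacked Tgm2.

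Values are normalized counts, reads per gene scaled by the authors for sequencing depth. The columns summed to 34.8M, 35.3M and 33.9M for WT tumors 1 to 3 and, for Tgm2 knockout tumors 1 to 3, to 32.3M, 35.8M and 37.7M. From the steps between low values, these correspond to an estimated 33.3M to 37.0M reads per tumor. The lowest estimated number of reads behind a value of the 8 enzymes was 279, for Loxl4 in WT tumor 3, and for the other 7 it was at least 799.

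Some tumors stood apart in other tissue markers. Cyp11a1 and Hsd3b1, enzymes of steroid synthesis in the ovary, were high in WT tumor 1 (8648 and 5526) and Tgm2 knockout tumor 1 (22480 and 25704), while in the other 4 tumors Cyp11a1 lay between 158 and 209 and Hsd3b1 between 1.08 and 68.1. Foxl2, Amh, Inhba, Lhcgr and Fshr, from the same list of ovarian genes, were also highest in knockout tumor 1 and next in WT tumor 1. Star, Inha and Cyp19a1 of that list did not follow. Star, the cholesterol carrier of steroid synthesis, was highest in WT tumor 2 (8970). Inha, the inhibin alpha subunit, was highest in knockout tumor 1 (10367) but lowest in WT tumor 1 (2585). Cyp19a1 was highest in knockout tumor 1 (82.1) but at 1.91 in WT tumor 1. WT tumor 3 held the highest values of the epithelial adhesion genes Epcam (8047) and Cdh1 (6588), which reached 1307 and 1876 in the other tumors. Krt7, Krt18 and Msln, from the same list of epithelium and mesothelium markers, were also highest there. Of the rest, Wt1 (13131) and Upk3b (2805) were lowest in WT tumor 3. Krt8 and Krt19 were highest in WT tumor 2, and Muc16 in knockout tumor 1. The genes of this paragraph were chosen after their values were seen.

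Throughout, the values of a group follow the order of its tumors, 1 to 3. Tgm2, the disrupted gene, was lower in every knockout tumor. It measured 14978, 12155 and 13180 across the WT group and 5853, 6071 and 8157 across the knockout group. The knockout values were all below the WT values, with a log2 fold change of -1.02 (SE 0.22, 95% confidence interval -1.52 to -0.51). The difference did not pass the adjustment over all genes (limma, adjusted p = 0.391), and an exact permutation test gave p = 0.1, the smallest that 3 tumors against 3 allow. Which part of Tgm2 was deleted is not given in the sources used here, and reads from outside it would still be counted.

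None of the 8 enzymes differed between the groups beyond the spread between tumors. A gene was called at an adjusted p of 0.05 (limma, Benjamini-Hochberg over all tested genes) together with a log2 fold change of at least 1 in either direction. By this rule 0 of 8 enzymes were called, against 0.102% of all tested genes (20 genes, all higher in knockout tumors). At an unadjusted p of 0.05, 0 of 8 passed, against 5.78% of all genes. For all 8 the WT and knockout values overlapped, whereas the groups did not overlap in 10.5% of all genes (5.18% with every knockout tumor above, 5.33% with every one below). The log2 fold changes ran from -0.28 to 0.48 with a median of 0.09, and 5 of 8 were positive, against a median of -0.03 and 47.3% positive over all tested genes. The count of positive values moved with the tumors and settings used. Without WT tumor 3, 2 of 8 were positive (Lox and Plod3), against 48.8% of all genes. With either of the marker covariates described further on 0 of 8 were, and with array weights 4 of 8. Without WT tumor 1 the count was 6 of 8. It was 8 of 8 without both tumors high in Cyp11a1 and Hsd3b1, left out after seeing the data.

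**Figure D1:**
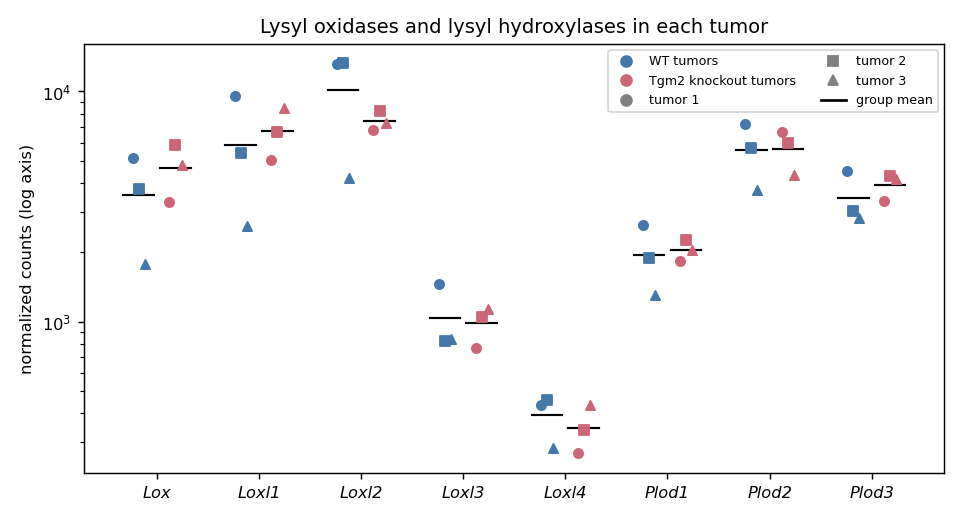
Normalized counts (log axis) of the 5 lysyl oxidases and 3 lysyl hydroxylases in each tumor; blue is WT, red is Tgm2 knockout, the marker shape is the tumor number and the bar is the group mean. The groups overlap for all 8 genes, and WT tumor 3 (blue triangle) is the lowest value of 6 of them.

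Lox, on chromosome 18 (52516067-52529867, minus strand, GRCm38), encodes the founding lysyl oxidase, which oxidizes collagen and elastin. It measured 5118, 3756 and 1780 normalized counts from WT mice and 3295, 5831 and 4801 from knockout mice. Knockout tumor 2 was highest and WT tumor 3 lowest by a wide margin, and the other 4 tumors lay between them with the groups mixed. The fold change was 1.39 (95% confidence interval 0.749 to 2.59), on the log2 scale 0.48 (SE 0.39, limma adjusted p = 0.898).

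Loxl1, on chromosome 9 (58287738-58313186, minus strand), encodes the family member best known for its part in elastic fibres. It measured 9529, 5423 and 2607 normalized counts with a WT host, against 5044, 6649 and 8437 with a knockout host. Its highest and lowest values were both in WT tumors, which enclosed the whole knockout range. The log2 fold change was 0.36 (SE 0.44, 95% confidence interval -0.64 to 1.36, limma adjusted p = 0.922).

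Loxl2, on chromosome 14 (69609068-69695834, plus strand), encodes a lysyl oxidase with scavenger receptor domains that acts on type IV collagen among others. It measured 13130, 13235 and 4225 across the WT group and 6784, 8201 and 7316 across the knockout group. WT tumors 1 and 2 were nearly equal and above all others, WT tumor 3 was below all others, and the knockout tumors lay close together in between. The log2 fold change was -0.28 (SE 0.42, 95% confidence interval -1.25 to 0.68, limma adjusted p = 0.938). Without WT tumor 3 it was -0.83, with an unadjusted p of 0.00446 and an adjusted p of 0.824 in limma.

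Loxl3 and Loxl4 encode the other members with scavenger receptor domains. Loxl3, on chromosome 6 (83034173-83052562, plus strand), measured 1457, 821 and 838 normalized counts from WT mice and 766, 1044 and 1135 from knockout mice. WT tumor 1 was the highest and knockout tumor 1 the lowest. Loxl4, on chromosome 19 (42593982-42612813, minus strand), measured 436, 458 and 284 with a WT host, against 268, 337 and 435 with a knockout host. Here too knockout tumor 1 was lowest, just under WT tumor 3. Their log2 fold changes were -0.05 (SE 0.29, 95% confidence interval -0.71 to 0.61) and -0.18 (SE 0.32, 95% confidence interval -0.91 to 0.55).

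Among the lysyl hydroxylases, Plod1, on chromosome 4 (147909753-147936767, minus strand), measured 2617, 1891 and 1310 normalized counts across the WT group and 1830, 2261 and 2051 across the knockout group. WT tumors 1 and 3 were the highest and lowest of the 6. Plod2, on chromosome 9 (92542223-92608428, plus strand), measured 7211, 5700 and 3729 from WT mice and 6656, 5959 and 4337 from knockout mice. It was the only one of the 8 for which knockout tumor 3 was the lowest of its group while knockout tumor 1 was the highest. Plod3, on chromosome 5 (136987019-136996648, plus strand), measured 4501, 3040 and 2807 with a WT host, against 3340, 4308 and 4168 with a knockout host. Its knockout tumors all lay below WT tumor 1 and above WT tumor 2. Their log2 fold changes were 0.13 (SE 0.27), 0.06 (SE 0.29) and 0.21 (SE 0.23), and the interval of Plod3, the narrowest of the 8, ran from -0.32 to 0.75.

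**Figure D2:**
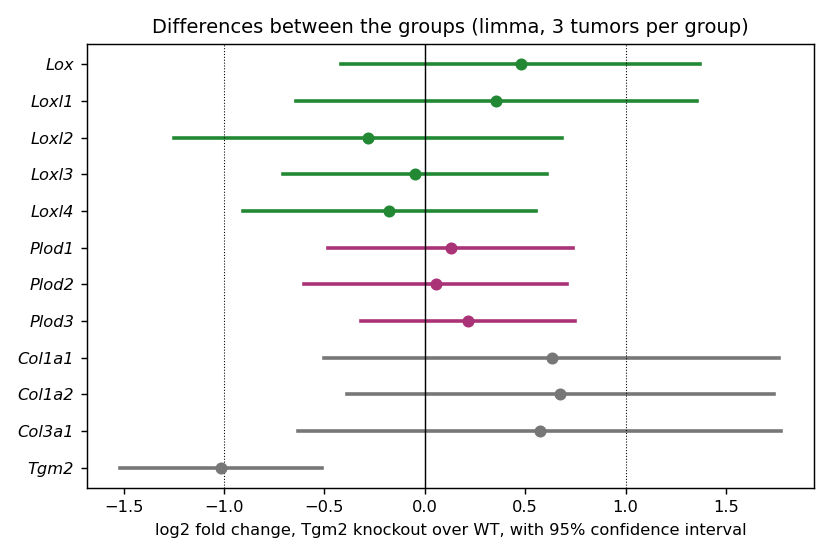
Log2 fold change of Tgm2 knockout over WT tumors (limma, 3 tumors per group) with its 95% confidence interval for the 8 enzymes, the 3 main fibrillar collagen chains and Tgm2; dotted lines mark a log2 fold change of 1 in either direction. All 8 enzyme intervals cross 0, and that of Tgm2 does not.

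The intervals give the sizes of change that the 6 tumors leave possible. As a ratio of knockout to WT level, the interval of Plod3 ran from 0.801 to 1.68 and that of Loxl1, the widest, from 0.641 to 2.56. A change by a log2 fold change of 1 lay outside the interval for Loxl3, Loxl4, Plod1, Plod2 and Plod3 in both directions. It lay inside the interval for Lox and Loxl1 in the higher direction and for Loxl2 in the lower direction.

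The spread came mainly from the WT tumors. The highest WT value was 1.60 to 3.65 times the lowest over the 8 enzymes (median 1.97), and the highest knockout value 1.21 to 1.77 times the lowest (median 1.51). The log2 SD was wider among WT tumors for 8 of 8 enzymes and for 59.1% of all tested genes. This rested on WT tumor 3: without it, 4 of 8 enzymes and 43.4% of all genes were wider among WT tumors. WT tumor 3 was the lowest of the 6 tumors for 6 of 8 enzymes, all but Loxl3 and Loxl4, and for 22.8% of all tested genes. It was also the lowest for 48 of the 91 other genes of the pathway lists described further on (52.7%), with 12 of 16 procollagen hydroxylases and chaperones and 16 of 23 fibre assembly partners among them but 2 of 12 hypoxia response genes and 1 of 5 copper supply genes. WT tumor 1 was the highest for 5 of 8 enzymes and for 10.7% of all genes.

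Averaged over the 8 enzymes, the deviation from the mean of the 6 tumors was 0.47, 0.05 and -0.66 on the log2 scale for the WT tumors, against -0.18, 0.17 and 0.14 for the knockout tumors. The mean of Col1a1, Col1a2 and Col3a1, the chains of types I and III collagen, deviated by 0.63, -0.32 and -1.25 across the WT group and 0.19, 0.38 and 0.38 across the knockout group. Fibroblast markers deviated by 0.14, -0.15 and -0.78, and by -0.06, 0.45 and 0.40. Enzymes, collagen and fibroblast markers were thus, on average, all lowest in WT tumor 3. White adipocyte markers (-1.34) and leukocyte and macrophage markers were, on average, lowest there as well. Smooth muscle and pericyte markers were lowest in knockout tumor 3, and epithelium and mesothelium markers were highest in WT tumor 3. The part of fibroblast or other cell content in the enzyme levels was not tested.

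**Figure D3:**
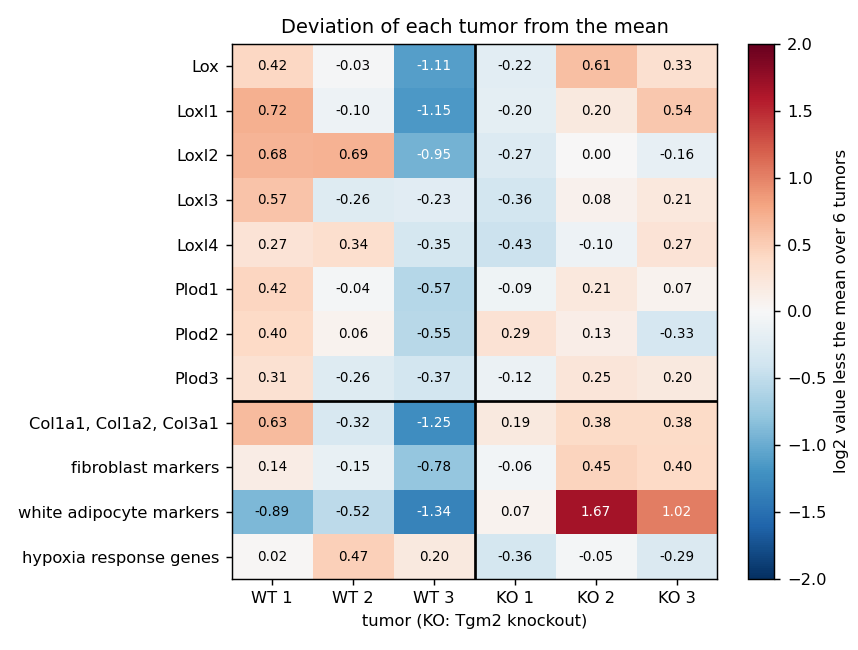
Deviation of each tumor (columns) from the mean of the 6 tumors, in log2 units, for the 8 enzymes and for the mean of the main fibrillar collagen chains, fibroblast markers, white adipocyte markers and hypoxia response genes (rows); red is above and blue below the mean. In WT tumor 3 all 8 enzymes are below the mean, and in WT tumor 1 all 8 are above it.

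Over the 6 tumors the enzymes moved together, as a description of 6 points that share a library for both genes of a pair. Pairs of other genes were not taken as a background. All 28 pairs had a positive Pearson r of log2 values, from 0.15 (Loxl4 and Plod2) to 0.95 (Loxl1 and Plod1), with a median of 0.70. The median was 0.68 among the lysyl oxidases, 0.74 among the lysyl hydroxylases and 0.71 between the families. Of the 12992 genes with a mean of at least 100, those most like an enzyme had a Pearson r of at least 0.96: Cnpy4 for Lox, Efnb1 for Loxl1, Cgas for Loxl2, Irak4 for Loxl3, Tmem51 for Loxl4, Gyg for Plod1, Tnmd for Plod2 and Erap1 for Plod3. With 6 tumors such values are easily reached: 33 of these genes had an r above 0.9 with Plod2 and 450 with Loxl1. Within the pathway lists, Lox was most like Col3a1 (r = 0.97), Loxl1 like Tgfb3 (0.99), a TGF-beta ligand, Plod1 like Crtap (0.98), a subunit of the prolyl 3-hydroxylase complex, and Plod3 like Fbn1 (0.96), the main microfibril protein. Loxl2 and Loxl4 were most like P3h4 (0.90 and 0.85), Loxl3 like Fbln2 (0.90) and Plod2 like P3h3 (0.90).

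Levels of different genes were compared per kb of transcript, from the mean length of the protein-coding transcripts of each gene in GENCODE M21. The lysyl oxidases together measured 7729, 6050 and 2540 normalized counts per kb in WT hosts, against 4194, 5676 and 5850 in knockout hosts. The lysyl hydroxylases together measured 5830, 4237 and 3237 from WT mice and 4617, 5179 and 4540 from knockout mice. Both totals overlapped between the groups, with means of 5440 ± 2648 (SD, n = 3) and 5240 ± 910 for the lysyl oxidases and of 4434 ± 1308 and 4779 ± 349 for the lysyl hydroxylases, WT first.

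Within the lysyl oxidase total, the shares of Loxl2 and Lox did not overlap between the groups, and those of the other 3 did. Loxl2 made up 40.6%, 52.3% and 39.8% of the total in WT hosts, against 38.7%, 34.6% and 29.9% in knockout hosts, so each knockout tumor fell short of each WT tumor (44.3% ± 7.0 and 34.4% ± 4.4, SD, n = 3). The share of Lox was 14.4%, 13.5% and 15.2% with a WT host, against 17.1%, 22.3% and 17.8% with a knockout host, so each knockout tumor exceeded each WT tumor (14.4% ± 0.9 and 19.1% ± 2.8, SD, n = 3). Taken relative to the same total, 2.61% of all tested genes had every knockout tumor above every WT tumor and 1.88% had every one below. The nearest tumors of the 2 groups were about 1 percentage point apart for Loxl2 and 2 for Lox. Loxl1 made up 31.9% ± 5.1 and 38.6% ± 4.5, Loxl3 5.93% ± 2.73 and 5.08% ± 0.17, and Loxl4 3.53% ± 1.22 and 2.86% ± 0.33 (WT and knockout, SD, n = 3), each with overlap. The shares add up to 100%, so a lower share of one gene raises the others, and no test was made. With the longest coding transcript as the length, the knockout tumors still lay below the WT tumors for Loxl2 (39.5% and 29.9%) and above them for Lox (15.8% and 20.5%).

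**Figure D4:**
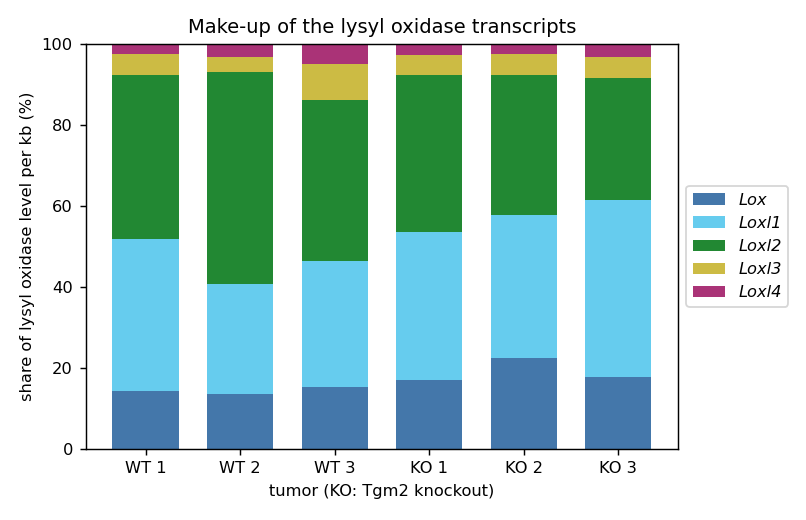
Share of each lysyl oxidase in the summed lysyl oxidase level per kb (percent, mean coding transcript length) in each tumor. The Loxl2 segment is smaller in every knockout tumor (29.9% to 38.7%) than in every WT tumor (39.8% to 52.3%), and the Lox segment is larger (17.1% to 22.3% against 13.5% to 15.2%).

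In the order of levels per kb, Loxl1 and Loxl2 were followed by Lox, then Loxl3 and then Loxl4 in every tumor. At the top, Loxl2 led in the 3 WT tumors and in knockout tumor 1, and Loxl1 led in knockout tumors 2 and 3. With the longest transcript Loxl1 led in all but WT tumors 2 and 3, so these neighbours could not be ordered. Plod3 had the highest mean level of the lysyl hydroxylases, with 40.5% and 42.5% of their total in WT and knockout tumors, ahead of Plod2 (34.0% and 32.3%) and Plod1 (25.5% and 25.2%). With the longest transcript Plod2 led (47.6% and 45.5%), so the order of Plod2 and Plod3 rests on the length used. None of these lysyl hydroxylase shares separated the groups.

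The balance of Plod2 to Plod1, of telopeptide to helical lysine hydroxylase, was taken as a ratio within each tumor. Its log2 value was 1.46, 1.59 and 1.51 across the WT group and 1.86, 1.40 and 1.08 across the knockout group. The WT tumors lay close together and the knockout tumors on both sides of them. The difference of -0.07 was within this spread (two-sided exact permutation test, p = 0.7).

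The lysyl oxidase total was also set beside Tgm2, the gene disrupted by design. The total per kb was 1.86, 1.79 and 0.693 times the Tgm2 level per kb from WT mice and 2.58, 3.36 and 2.58 times from knockout mice, with no overlap. A lower denominator raises any gene on this scale, and 54.1% of all other tested genes, taken relative to Tgm2, likewise had every knockout tumor above every WT tumor. The numerator overlapped between the groups, as given above, whereas Tgm2 per kb was 3737 ± 397 (SD, n = 3) in the WT tumors and 1861 ± 354 in the knockout tumors.

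Enzyme levels were also set beside fibrillar collagen, by subtracting the mean log2 value of Col1a1, Col1a2 and Col3a1 in each tumor. That mean was itself 0.63 higher in the knockout tumors, with overlap, and the subtraction lowers every gene by this amount. Without WT tumor 3 it was 0.16 higher. On this scale all 8 enzymes had lower means in the knockout tumors, as did 88.3% of all tested genes. Loxl2 lay at -2.67, -1.70 and -2.42 with a WT host, against -3.18, -3.09 and -3.26 with a knockout host, a difference of -0.91. Loxl3 lay at -5.84, -5.71 and -4.76 across the WT group and -6.32, -6.06 and -5.94 across the knockout group, a difference of -0.67. For these genes every knockout tumor was below every WT tumor, 2 of 8 enzymes against 5.99% of all tested genes on the same scale (0.91% with every knockout tumor above, 6.9% in either direction). The other 6 overlapped, with differences of -0.15 (Lox), -0.27 (Loxl1), -0.80 (Loxl4), -0.50 (Plod1), -0.57 (Plod2) and -0.41 (Plod3). Without WT tumor 3, a choice made after seeing the data, all 8 differences stayed negative. Those of Plod3, Plod1, Plod2 and Loxl3 became -0.08, -0.29, -0.37 and -0.34. For Lox, Loxl1, Loxl4 and Loxl2 they became -0.12, -0.29, -0.56 and -0.99. Loxl2 and Loxl3 still had every knockout tumor below the remaining WT tumors, 2 of 8 enzymes against 6.34% of all tested genes.

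This comparison depended on the reference. With the mean of all 11 tested fibrillar chains, which gives chains of low level the same weight, 2 of 8 enzymes had lower means, Loxl2 (-0.20) and Loxl4 (-0.10), as did 44.9% of all genes, and 0 of 8 were separated, against 1.61% of all genes with every knockout tumor below and 3.23% with every one above. With the mean of the fibroblast markers, 8 of 8 had lower means, as did 86.1% of all genes, and 4 of 8 lay below every WT tumor, Loxl2 (-0.81), Loxl3 (-0.57), Loxl4 (-0.70) and Plod1 (-0.40), against 17.4% of all genes below and 1.43% above. The fibroblast mean was itself 0.53 higher on the log2 scale in the knockout tumors (0.27 without WT tumor 3), with overlap, which lowers every gene by that amount.

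**Figure D5:**
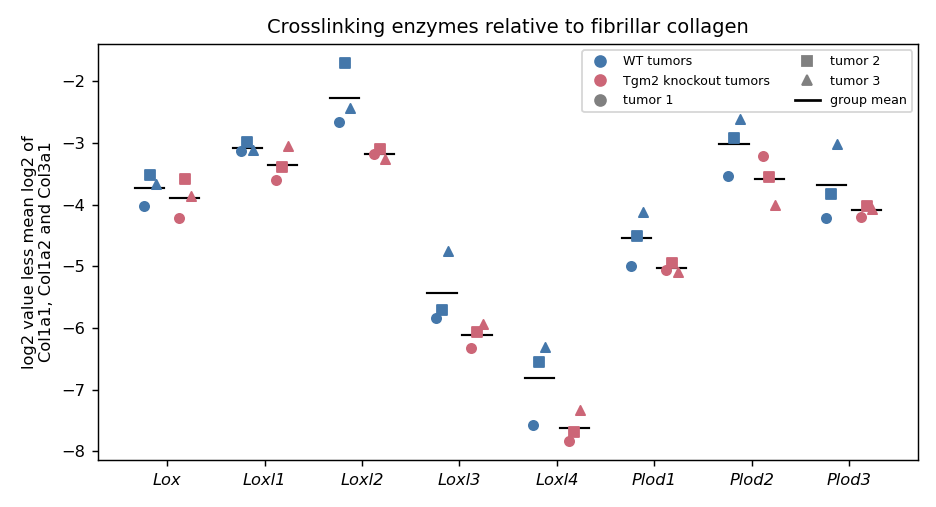
Log2 value of each enzyme less the mean log2 value of Col1a1, Col1a2 and Col3a1 in the same tumor; blue is WT, red is Tgm2 knockout, the marker shape is the tumor number and the bar is the group mean. Knockout tumors lie below all WT tumors for Loxl2 and Loxl3 and overlap with them for the other 6.

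The remaining genes of collagen maturation were read from lists of pathway genes. Of the 16 prolyl hydroxylases, glycosyltransferases and chaperones of procollagen, 0 were called and 0 passed an unadjusted p of 0.05, with a median log2 fold change of 0.09. The most abundant per kb were Serpinh1 (0.42), the collagen chaperone HSP47, P4hb (-0.19), the beta subunit of prolyl 4-hydroxylase, and Ppib (-0.03), a prolyl isomerase. P3h2, a prolyl 3-hydroxylase, measured 418, 418 and 488 normalized counts from WT mice and 677, 580 and 614 from knockout mice. All its knockout values were above the WT values, with a log2 fold change of 0.50 and a limma adjusted p of 0.880. It passed an unadjusted p of 0.05 with the fibroblast covariate (0.65), without WT tumor 3 (0.57) and with array weights (0.53). Of the 7 propeptide proteinases and enhancers tested, 0 were called and 0 passed unadjusted, with a median of -0.19. Among them were Pcolce (0.26), Bmp1 (-0.19), the procollagen C-proteinase, and Adamts2 (0.75), the N-proteinase of type I collagen. Adamts2 passed an unadjusted p of 0.05 with the replicate block, without WT tumor 1 (1.14) and without the pair high in Cyp11a1 and Hsd3b1, left out after seeing the data (0.90), and it was at 0.48 without WT tumor 3 and 0.46 with the fibroblast covariate, where it did not.

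Of the 12 fibrillar collagen chains and elastin, 0 were called and the median log2 fold change was 0.46. Col3a1 (0.57), Col1a2 (0.68) and Col1a1 (0.63) were the most abundant per kb, and each overlapped between the groups. At an unadjusted p of 0.05, 1 chain was higher, Col5a3 (0.92), with 1077, 594 and 460 normalized counts with a WT host, against 1193, 1383 and 1206 with a knockout host. Against a background of 3.4% of genes higher and 2.38% lower, 1 was lower, Col2a1, a cartilage chain of at most 25.8 normalized counts that was named because it passed. Of the 23 fibre assembly partners 0 were called and 19 had a positive log2 fold change (median 0.31), against 47.3% of all tested genes. WT tumor 3 was the lowest of the 6 tumors for 16 of these 23. The small proteoglycans Bgn (0.29) and Dcn (0.27) and the fibulin Fbln2 (0.00) were the most abundant per kb, and Lum (0.82, limma adjusted p = 0.819), which binds collagen fibrils, was the 1 that passed unadjusted. Col5a3 and Lum no longer passed with the white adipocyte covariate (0.54 and 0.44), the fibroblast covariate (0.41 and 0.61), without WT tumor 3 (0.65 and 0.59) or without knockout tumor 2 (0.85 and 0.63).

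Copper is the cofactor of lysyl oxidases, and 0 of 5 copper supply genes were called or passed unadjusted. Their median was -0.31, and the copper chaperone Atox1 measured 3296, 4370 and 3418 normalized counts across the WT group and 1963, 3617 and 2724 across the knockout group. Its groups overlapped, with a log2 fold change of -0.45. This was -1.40 with the white adipocyte covariate and -0.66 without knockout tumor 2, passing an unadjusted p of 0.05 in both and with the replicate block, and -0.22 without knockout tumor 1. Of the 9 TGF-beta ligands, receptors and early targets, a pathway known to raise lysyl oxidases in fibroblasts, 0 were called or passed unadjusted (median 0.07), among them Ccn2 (0.00), Tgfb1 (0.07), Tgfbr1 (0.16) and Tgfbr2 (0.34). Of the 7 other crosslinking enzymes tested, Tgm2 was the 1 that passed unadjusted. The peroxidasin gene Pxdn, whose product crosslinks type IV collagen, had a log2 fold change of 0.18. F13a1, the catalytic chain of factor XIII, measured 966, 635 and 257 normalized counts from WT mice and 719, 2653 and 876 from knockout mice, and knockout tumor 2 was the highest and the groups overlapped.

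Lox, Loxl2, Plod1 and Plod2 are known as targets of the hypoxia-inducible factors, so genes of the hypoxia response were set beside them. Of 12 genes, 0 were called, 10 had a negative log2 fold change (median -0.42), and 4 were lower at an unadjusted p of 0.05, against 2.38% of all genes: Vegfa (-1.35), Car9 (-1.03), Pdk1 (-0.67) and Egln3 (-0.50). Their limma adjusted p-values were 0.644, 0.759, 0.858 and 0.819, and the last 3 were named because they passed. Vegfa, the main vascular growth factor, measured 5980, 7074 and 15173 normalized counts with a WT host, against 4599, 3131 and 2701 with a knockout host. Its log2 fold change was -0.27 with the white adipocyte covariate and -0.58 with the fibroblast covariate. Egln3, an oxygen-sensing prolyl hydroxylase, measured 6249, 7556 and 5570 across the WT group and 4326, 4191 and 5093 across the knockout group. Every knockout tumor was below every WT tumor for 4 of the 12 listed genes, the same 4 that passed, against 5.33% of all genes, and for 0 of the 8 crosslinking enzymes. The abundant glycolytic members Ldha (-0.14) and Pgk1 (-0.21), and Ndrg1 (0.22), overlapped between the groups.

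The hypoxia-inducible factors bind the core sequence ACGTG or GCGTG. In the window of 250 bases before the start of each gene, only ACGTG, called the motif here, was searched for. Both strands were searched (a palindromic match counts on both). Of all 32851 RefSeq promoter entries on GRCm38.p6, 16.6% held it. Entries were matched by symbol for Loxl4, Plod1 and Plod3, and not for Lox, Loxl1, Loxl2, Loxl3 and Plod2. Plod3 held 1 match, 54 bases before the start, and Loxl4 and Plod1 held 0, while 9 of the 14 entries of 11 hypoxia response genes held at least 1. The windows of Plod3 (chr5:136986769-136987018, plus strand) and, as an example of a hypoxia gene with lower knockout values, of Egln3 (chr12:54203875-54204124, minus strand) are printed 5′ to 3′ to show where the motif lies, which is in capitals:
Plod3: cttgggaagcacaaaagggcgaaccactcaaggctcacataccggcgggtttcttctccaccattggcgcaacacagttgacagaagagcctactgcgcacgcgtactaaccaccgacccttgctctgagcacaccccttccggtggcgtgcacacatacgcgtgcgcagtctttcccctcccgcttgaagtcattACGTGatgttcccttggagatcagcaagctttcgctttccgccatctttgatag
Egln3: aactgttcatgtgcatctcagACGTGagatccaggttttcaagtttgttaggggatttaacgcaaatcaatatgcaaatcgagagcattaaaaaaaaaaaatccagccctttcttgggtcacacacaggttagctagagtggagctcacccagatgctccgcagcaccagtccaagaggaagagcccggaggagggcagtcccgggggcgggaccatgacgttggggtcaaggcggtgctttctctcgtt
GCGTG was not searched for or counted, and it stands in lower case in the Plod3 window. A match gives only the letters at that place. Beside it stand the values above, a log2 fold change of 0.21 for Plod3 and of -0.50 for Egln3.

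Markers of the cell types that make or surround the matrix varied between the tumors. Of 10 fibroblast markers, 0 were called and 10 had a positive log2 fold change (median 0.38), against 47.3% of all tested genes. WT tumor 3 was the lowest of the 6 tumors for 7 of these 10. Clec3b (1.87, limma adjusted p = 0.347) and Pdgfra (0.70) passed unadjusted, and Clec3b was at 0.96 and did not pass with the white adipocyte covariate. The summed level of the list was 32986, 27238 and 16470 normalized counts from WT mice and 25789, 34591 and 40043 from knockout mice, with Col15a1 the most abundant. Of 8 markers of smooth muscle and pericytes, 7 had a negative log2 fold change (median -1.33) and Des, a muscle intermediate filament, was lower at an unadjusted p of 0.05 (-1.70). Des no longer passed without knockout tumor 3 (-1.02), without WT tumor 1 (-1.34), without WT tumor 2 (-1.73) or without knockout tumor 2 (-1.66). It also did not pass with the white adipocyte (-0.40) or fibroblast (-1.68) covariate, or without the variance trend (-1.70). Their sum was 47942, 29854 and 19232 with a WT host, against 34310, 12767 and 7666 with a knockout host, lowest in knockout tumors 2 and 3.

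White adipocyte markers had a median log2 fold change of 1.80, against -0.03 over all tested genes. At an unadjusted p of 0.05, 9 of 10 were higher, against 3.4% of all genes. Lep, the adipocyte hormone leptin, was called (3.74, limma adjusted p = 0.0393), with 43.5, 40.7 and 18.2 normalized counts across the WT group and 334, 494 and 512 across the knockout group. All its knockout values were above the WT values, but the call was lost under 12 of the alternatives. Among them were the replicate block (limma adjusted p = 0.470), both covariates and each tumor left out in turn (limma adjusted p = 0.053 to 0.269). The log2 fold change there was 3.74 with the block and 3.35 to 3.96 with a tumor left out. It was 2.66 with the white adipocyte covariate and 3.04 with the fibroblast covariate. The sum of the list, with Cfd, Fabp4 and Lpl the most abundant per kb, was 43559, 55772 and 32809 from WT mice and 47181, 165156 and 97637 from knockout mice. With the mean of these markers as a covariate, the log2 fold changes of Lox and Loxl1 turned negative (-0.80 and -0.59), those of Plod1, Plod2 and Plod3 likewise (-0.41, -0.04 and -0.20), those of Loxl2, Loxl3 and Loxl4 moved further below 0 (-1.30, -0.50 and -0.86), and 0 of 8 enzymes passed an unadjusted p of 0.05. With the fibroblast markers as the covariate the same 5 turned negative (-0.37, -0.56, -0.35, -0.24 and -0.14), and Loxl2 passed an unadjusted p of 0.05 (-1.08, limma adjusted p = 0.826). None was called under either.

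B and plasma cell markers had a median of 2.03, with Jchain (4.80, limma adjusted p = 0.000989), Mzb1 (4.27) and Cd79a (3.01) called higher. Of these 3 calls, 0 remained with the white adipocyte covariate, which did not overlap between the groups. Over all tested genes, 0 were called higher with it. The log2 fold change of Jchain was then 4.34 (SE 0.55, limma adjusted p = 0.223), against an SE of 0.29 in the main fit. The list held 1 call without WT tumor 2 and 1 without the variance trend. Jchain, the joining chain of secreted antibodies, was the most abundant of them, and the sum of the list was 15759, 17711 and 12750 normalized counts with a WT host, against 59253, 82310 and 86650 with a knockout host. Leukocyte and macrophage markers had a median of 0.51 and 0 called, with Cd163 (1.91), a macrophage scavenger receptor, passing unadjusted but not with the white adipocyte covariate (0.90). Markers of endothelium had a median of 0.44 with Cdh5 (0.75) passing unadjusted, though not when any tumor other than WT tumor 1 was left out (0.56 to 0.80) nor with the white adipocyte (0.90) or fibroblast (0.39) covariate, and with 1.12 without WT tumor 1, and those of epithelium and mesothelium had a median of -0.32 with 0 passing. The enzymes are made by several of these cell types, and the part of each type in the enzyme levels was not tested.

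Of 9 tested granulosa and luteal cell genes, 0 were called, with a median of 0.83. The sum over all 10 listed genes was 24098 normalized counts in WT tumor 1 and 70948 in knockout tumor 1, against 7874 to 15360 in the other 4. When the 2 tumors with high Cyp11a1 and Hsd3b1 were left out, which was decided after seeing the data, Lox and Loxl1 were higher in the knockout tumors at an unadjusted p of 0.05 (1.03 and 0.99, limma adjusted p = 0.571 and 0.592) but were not called, and the log2 fold changes of Loxl2, Loxl3 and Loxl4 turned positive (0.05, 0.39 and 0.09). Each group then held 2 tumors, and WT tumor 3 was 1 of the 2 WT tumors.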

How the data were processed

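RNA of 6 primary tumors, 3 WT and 3 Tgm2 knockout, was sequenced by the authors as paired reads. According to the study's methods and the submitters' processing notes, transcripts were quantified with kallisto 0.46.2 (GRCm38), summed to genes through biomaRt and Ensembl, filtered for low expression and scaled with the size factors of DESeq2; the Ensembl release and the limit for low expression are not given in the sources used here. The signal values the authors deposited are on the scale of normalized counts, although the table is labelled TPM: the columns sum to different totals of 32.3M to 37.7M, and median-of-ratios size factors recomputed from them are all 1. The 6 columns were matched to tumors by group and number. All columns were mapped to a tumor.

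TPM values had been assumed when the tests were chosen, and the same tests were kept. No count model was fitted, because values were whole multiples of 1 read (within 0.1) for 97.5% to 99.2% of low values of genes with 1 transcript but 42.7% to 47.7% of those with several. Here, log2(value + 1) was compared with limma 3.58.1 in R 4.3.3, with a trend of variance on mean and no covariate, in genes that reached 1 in 3 or more tumors. Tests were two-sided and adjusted by Benjamini-Hochberg over all 19667 tested genes, and a fold change on this scale understates that of low genes. Exact permutation tests cannot go below p = 0.1. Nothing in the labels says that same-numbered tumors share a litter or day. Positions and transcript lengths come from GENCODE M21, matched by symbol for 94.8% of genes. The fits were tested on simulated data.

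The enzymes and all gene lists were chosen with earlier results of these data known. Genes named are the 8 enzymes, Tgm2, the 3 most abundant genes per kb, the gene with the smallest p and every called gene of a list (not all are printed for the cell type lists), and the genes most like each enzyme; any other gene was chosen after its values were seen. The alternatives changed the pseudocount, filter, scaling, tumor weights, variance trend, covariates, replicate block, transcript length and collagen reference, and left out each tumor in turn. No other column of the table was used.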

Additional observations from a re-analysis of the deposited data

How the results depend on the processing

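Of the 8 enzymes, 0 were called under every alternative run: pseudocounts of 0.1 and 10, no filter or a filter of at least 10, other scalings, array weights, no variance trend, both covariates, the replicate block, no limit on fold change, and each tumor left out. Directions were less stable, and the intervals of all 8 enzymes crossed 0 in the main fit. With the white adipocyte covariate the log2 fold changes were -0.80 (Lox), -0.59 (Loxl1), -0.41 (Plod1), -0.036 (Plod2) and -0.20 (Plod3), and with the fibroblast covariate -0.37, -0.56, -0.35, -0.24 and -0.14 for the same genes, with 1 enzyme (Loxl2) past an unadjusted p of 0.05. The white adipocyte covariate did not overlap between the groups, so its fits tell it and the host genotype poorly apart. Array weights gave -0.11 for Plod2. Leaving out each tumor in turn gave ranges of 0.04 to 0.81 (Lox), -0.13 to 0.80 (Loxl1), -0.83 to -0.01 (Loxl2), -0.19 to 0.22 (Loxl3), -0.39 to -0.01 (Loxl4), -0.13 to 0.37 (Plod1), -0.20 to 0.27 (Plod2), 0.08 to 0.42 (Plod3) and -1.17 to -0.93 (Tgm2), with 0 to 1 enzymes past an unadjusted p of 0.05 (Loxl2, without WT tumor 3). Without WT tumor 3, Loxl1 (-0.13), Plod1 (-0.13) and Plod2 (-0.20) turned negative. Leaving out both tumors with high Cyp11a1 and Hsd3b1, added after seeing the data, gave 0.051 (Loxl2), 0.39 (Loxl3) and 0.086 (Loxl4), with 2 enzymes past an unadjusted p of 0.05 (Lox and Loxl1). The Plod2 to Plod1 difference ranged from -0.28 without knockout tumor 1 to 0.11 without knockout tumor 3. The cause of these reversals was not tested.

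Over all genes, 20 were called higher, and between 0 (white adipocyte covariate) and 21 (array weights) under the alternatives. The count was 4 without the variance trend, 6 with the fibroblast covariate and 2 to 15 when a tumor was left out. Lep lost its call under 12 of these alternatives, not counting the tumors chosen after seeing the data, with log2 fold changes of 2.66 to 3.96. Jchain lost its call with the white adipocyte covariate (4.34). With the replicate block, 5 genes were called higher, and 0 of 8 enzymes were called; the log2 fold changes are the same by construction (0.48 for Lox). Same-numbered tumors correlated in their deviations at -0.20, 0.28 and -0.31, so the numbers were not taken as pairs. The fewest reads behind an enzyme value were the estimated 279 of Loxl4 in WT tumor 3.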
